A study of Homo sapiens with 3 samples.

Results

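The genes described here are 46 components, targets and secreted products of the NF-kB pathway, measured in CAL 27 cells that carried nm23-H1, nm23-H2 or the vector alone. They were taken as the probe sets whose single annotated gene symbol is on that list, which gave 66 probe sets for 41 of the 46 genes, out of 11963 genes that a probe set represents alone. CAL 27 is a cell line from a poorly differentiated squamous cell carcinoma of the tongue. The nm23-H1 cells were stable transfectants overexpressing a fusion of GFP and Nm23-H1, and the design text speaks of several expressing clones. The nm23-H2 cells were stable transfectants of the pEGFPC1 plasmid with nm23-H2. The vector cells were a single clone with the empty pEGFPC1 vector, which overexpressed GFP. All 3 were grown in the same kind of medium with serum, and the labels name no cytokine or other stimulus. Nm23-H1 and Nm23-H2 are nucleoside diphosphate kinases. Each group was 1 array, so no difference has a replicate check, no p-value was computed, and construct and transfected line cannot be told apart.

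NF-kB is a family of dimeric transcription factors built from RelA, RelB, c-Rel and the NFKB1 and NFKB2 products. In resting cells the dimers are held in the cytoplasm by inhibitors of the IkB family, and signals from TNF, interleukin-1 or Toll-like receptors lead to destruction of these inhibitors and to entry of the dimers into the nucleus. Among the genes that NF-kB switches on are its own inhibitors, which end the response, and cytokines and chemokines that keratinocytes and squamous tumour cells can secrete.

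Signals were scaled to a common trimmed mean, and values below 28.3 signal units, the median of all values, were set to this floor before log2 was taken. Where 1 of the arrays compared lies at the floor, the fold is a lower bound and is written "at least". A gene was counted when its probe set differed by 2-fold or more, and 8000 of all genes exceeded the floor somewhere. The error available, here called the probe error, was that of 1 probe set. It is the SD of how far probe sets of 1 gene differed, divided by the square root of 2. Only probe sets above the floor on both compared arrays entered. On the log2 scale the probe error was 0.33 when nm23-H1 was set against vector, 0.37 when nm23-H2 was, and 0.40 between the transfectants. It covers no difference between cultures or clones. The NME1 probe set read 2379 with nm23-H1, 1132 with nm23-H2 and 1519 with vector, and the one annotated to NME2 and its read-through with NME1 read 2323, 4845 and 2272 in the same order of arrays. All 9 squamous epithelial markers with a probe set were above the floor on all 3 arrays. Of 13 leukocyte markers 7 exceeded the floor on 1 array or more, as did 8000 of all 11963 genes. Their summed signal was 358 with nm23-H1, 191 with nm23-H2 and 304 with vector, and none of the 13 passed 2-fold against vector. CD2, ITGAM and FCER1G were above the floor on all 3 arrays, with signals up to 56.2, and CD3E, CD3D, CD14 and CSF1R on 1 or 2. The other 6, among them PTPRC, which encodes the pan-leukocyte antigen CD45, were at or below the floor on all 3. The part of such cells in the results was not tested.

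Of the 41 genes, 9 (22.0%) were at least 2-fold higher with nm23-H2 than with vector, against 2.37% of all genes, and 1 was lower by as much, against 2.42% of all genes. With nm23-H1 none was at least 2-fold higher than with vector, where 1.45% of all genes were, and 1 was lower, where 1.15% were. Among the 8000 genes above the floor the shares higher and lower were 3.54% and 3.62% with nm23-H2, and 2.16% and 1.71% with nm23-H1. The 46 genes were listed with earlier results of these data known, so these shares describe the list and test nothing. The 9 higher with nm23-H2 were 1 of 9 pathway components (RELB), 3 of 4 feedback inhibitors (TNFAIP3, TNIP1 and NFKBIA) and 5 of 23 secreted products (IL1A, IL1B, IL1RN, CXCL1 and CXCL2). None of the 5 other targets passed 2-fold. The comparisons share the vector array. Between the transfectants, nm23-H1 was at least 2-fold below nm23-H2 for 9 genes and above it for none, against 2.5% of all genes, or 3.74% of the 8000, in each direction. This comparison uses the same arrays as those with vector. In RNA from whole cultures, more RNA per cell and more cells with the RNA cannot be told apart.

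**Figure D1:**
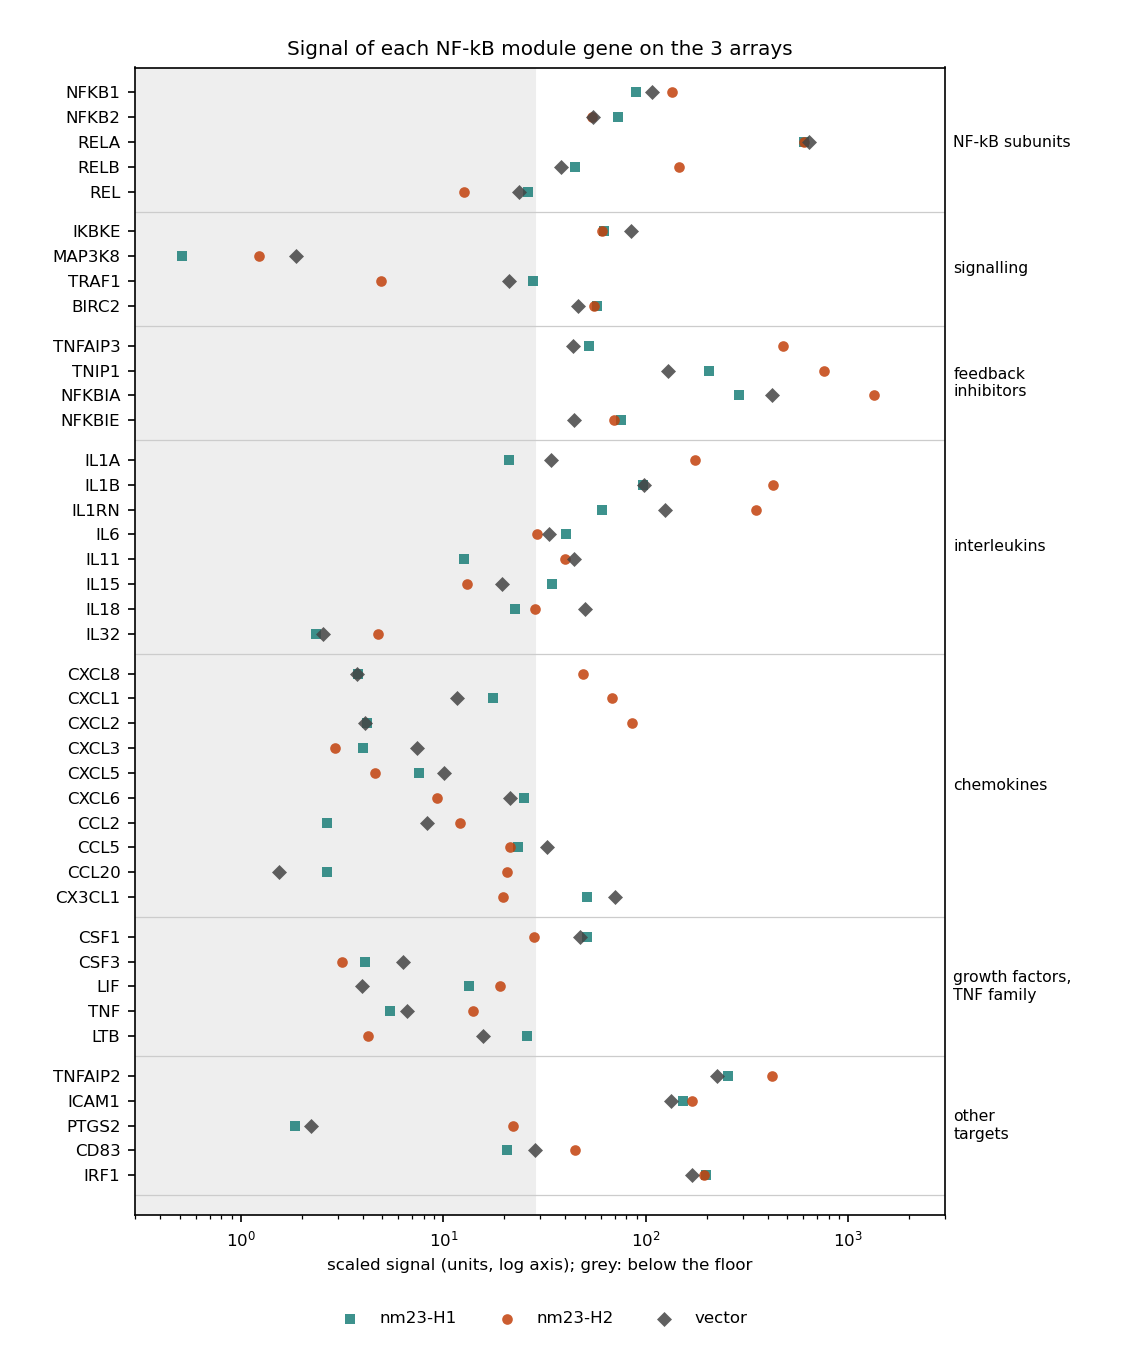
Scaled signal (log scale, signal units) of each of the 41 genes on the nm23-H1, nm23-H2 and vector arrays, 1 point per array, with values below the floor of 28.3 shaded grey. TNFAIP3, TNIP1, NFKBIA, RELB, IL1A, IL1B and IL1RN stand highest on the nm23-H2 array, and 14 genes lie at or below the floor on all 3 arrays.

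The median difference of all 41 genes was 0 for each comparison, as was that of all 11963 genes, since 15 to 17 of the 41 had both compared arrays at the floor. Over the 26 genes above the floor on the nm23-H2 or the vector array the median was 0.50, against -0.09 for all genes so measured. Over the 24 above the floor on the nm23-H1 or the vector array it was 0.06, against 0.01.

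The inhibitors that NF-kB induces against itself had the highest median difference of the 4 classes with nm23-H2, over the probe sets used for the counts. TNFAIP3, which encodes A20, an enzyme that edits ubiquitin chains and damps signalling to NF-kB, read 52.5 with nm23-H1, 475 with nm23-H2 and 43.6 with vector. That was 10.9-fold higher with nm23-H2 than with vector, a log2 difference of 3.44, or 9.34 times the probe error, and 0.27 with nm23-H1. The nm23-H1 and vector arrays were alike and the nm23-H2 array stood far above both. A second TNFAIP3 probe set read 44.5 with nm23-H1, 250 with nm23-H2 and 41.4 with vector, a log2 difference of 2.60 between nm23-H2 and vector.

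TNIP1 encodes a partner protein of A20. It read 205 with nm23-H1, 760 with nm23-H2 and 129 with vector, which was 5.90-fold higher with nm23-H2 and 1.59-fold higher with nm23-H1 than with vector. NFKBIA encodes IkB-alpha, the inhibitor that holds NF-kB in the cytoplasm and is resynthesised after activation. It read 289 with nm23-H1, 1345 with nm23-H2 and 419 with vector, which was 3.21-fold higher with nm23-H2 and 1.45-fold lower with nm23-H1, both against vector. The nm23-H1 and nm23-H2 arrays thus lay on opposite sides of the vector array for NFKBIA, with 4.66-fold between them. NFKBIE, which encodes the related inhibitor IkB-epsilon, read 75.4 with nm23-H1, 69.5 with nm23-H2 and 44.2 with vector, log2 differences of 0.77 and 0.65 from vector. It was the only one of the 4 inhibitors under 2-fold with nm23-H2. As a group the 4 had a median log2 difference of 2.12 with nm23-H2 and 0.47 with nm23-H1, where the medians over the 8000 genes above the floor were -0.06 and 0.

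Promoters are shown for the 3 inhibitors that passed 2-fold with nm23-H2, because each holds a match to the kB consensus. The kB consensus is the DNA motif bound by NF-kB dimers. The search covered the 250 bases before each start in the RefSeq promoter table (GRCh38.p14) on both strands, for the 10-base kB consensus and for the 9-base motif GGAATTTCC, which can lie within a consensus match. The sequences are the 120 bases before the start, read 5′ to 3′ on the gene's strand, with consensus matches in capitals: TNFAIP3 at chr6:137867139-137867258 (plus strand), TNIP1 at chr5:151081035-151081154 (minus strand, 1 of 2 starts in the table) and NFKBIA at chr14:35404750-35404869 (minus strand).
TNFAIP3: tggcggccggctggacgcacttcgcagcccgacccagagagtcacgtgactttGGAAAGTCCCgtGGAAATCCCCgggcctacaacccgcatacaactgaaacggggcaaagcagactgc
TNIP1: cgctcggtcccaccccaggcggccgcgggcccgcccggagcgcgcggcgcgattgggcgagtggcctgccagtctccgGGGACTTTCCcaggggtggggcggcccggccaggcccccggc
NFKBIA: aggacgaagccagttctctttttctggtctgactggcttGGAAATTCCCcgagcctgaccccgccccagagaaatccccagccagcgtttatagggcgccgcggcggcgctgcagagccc
TNFAIP3 had 2 consensus matches, 67 to 58 and 55 to 46 bases before its start. NFKBIA had 1, at 81 to 72 bases, with the 9-base motif inside it, and TNIP1 had 1, at 42 to 33 bases before 1 of its starts. The remaining inhibitor, NFKBIE, and the subunit RELB were among 10 genes of the list with no promoter in the table, so they were not searched.

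Of the NF-kB subunits, RELB alone passed 2-fold. RELB, the partner of the NFKB2 product p52 in the alternative branch of the pathway, read 44.9 with nm23-H1, 145 with nm23-H2 and 38.3 with vector, which was 3.80-fold higher with nm23-H2 than with vector and 1.17-fold higher with nm23-H1. The nm23-H2 array again stood apart. RELA, the subunit of the commonest dimer, read 605 with nm23-H1, 601 with nm23-H2 and 642 with vector, and its second probe set differed by 0.01 with nm23-H1 and 0.29 with nm23-H2 (log2) from vector. NFKB1, the precursor of p50, read 89.8 with nm23-H1, 134 with nm23-H2 and 108 with vector. Its differences from vector, -0.26 and 0.32 on the log2 scale, were both within the probe error. NFKB2, the precursor of p52, read 73.2, 54.2 and 54.9 on the nm23-H1, nm23-H2 and vector arrays. Another NFKB2 probe set was above the floor with nm23-H2 only, reading 22.3 with nm23-H1, 42.4 with nm23-H2 and 3.21 with vector, and the remaining one read 28.5 with nm23-H1 and was below the floor on the others. REL was at or below the floor on all 3.

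Of the signalling components, BIRC2, a ubiquitin ligase of the TNF receptor complex, read 57.2 with nm23-H1, 55.6 with nm23-H2 and 46.4 with vector. IKBKE, a kinase related to the IkB kinases, read 62.5 with nm23-H1, 61.0 with nm23-H2 and 84.7 with vector. Its 2 probe sets went opposite ways for nm23-H1 against vector, by -0.44 and 0.48 on the log2 scale. MAP3K8, a kinase upstream of MAP kinases, and TRAF1, an adaptor of TNF receptors, were at or below the floor on all 3 arrays.

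**Figure D2:**
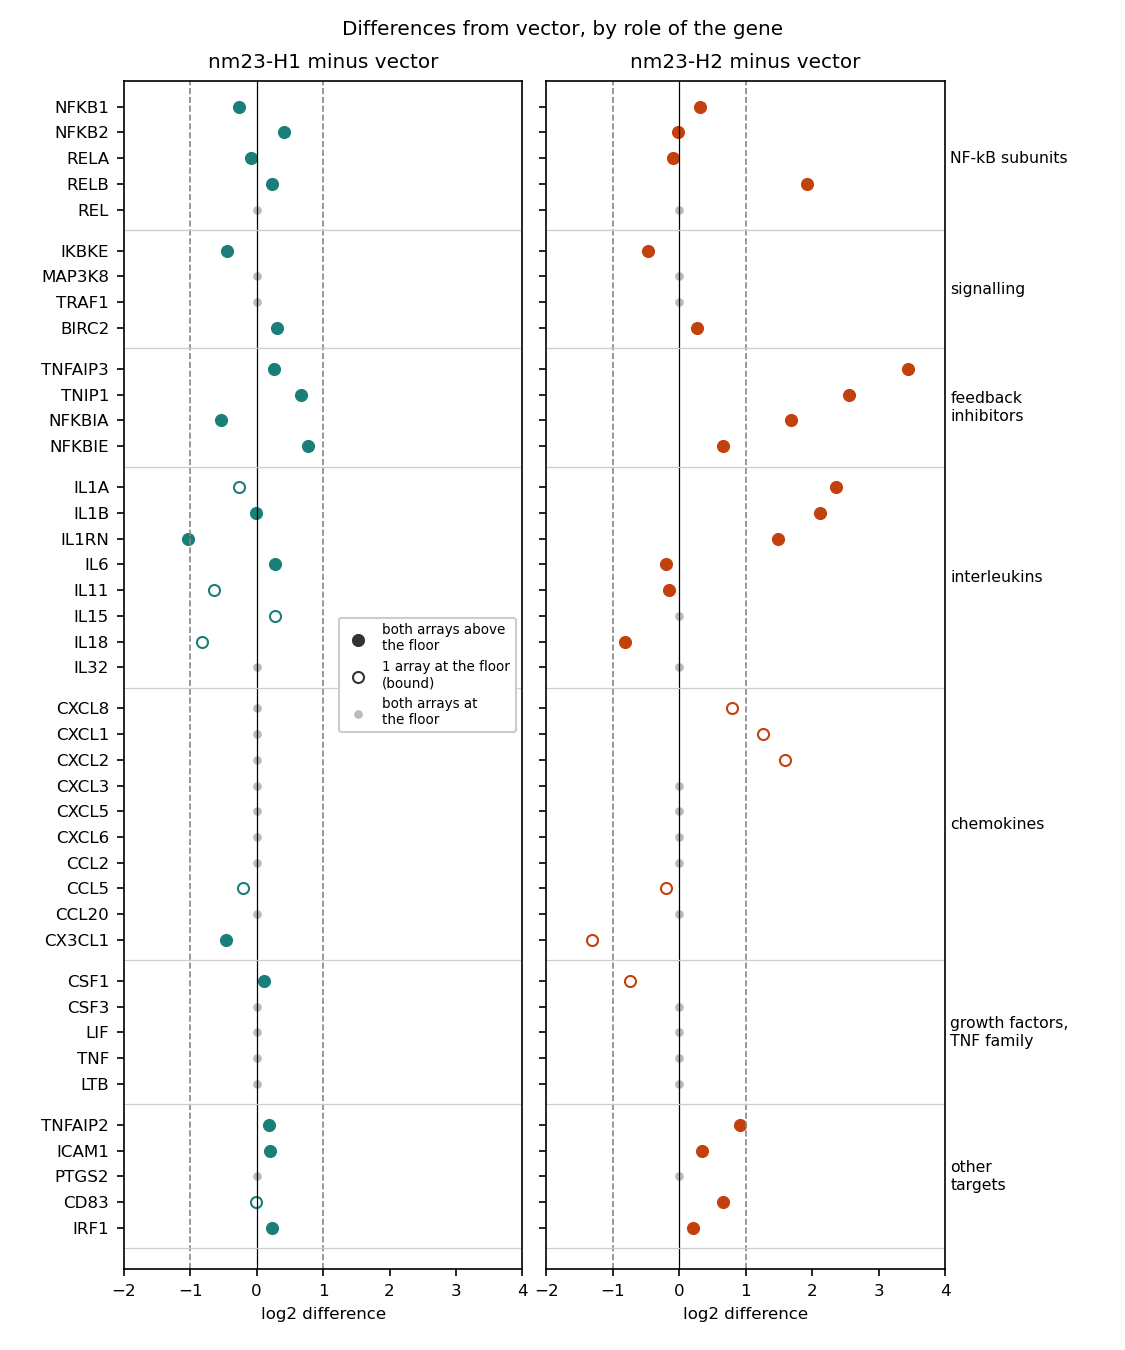
Log2 difference from vector for each of the 41 genes, nm23-H1 on the left and nm23-H2 on the right, grouped by role, with dashed lines at 2-fold. Filled points have both arrays above the floor, open points have 1 array at the floor and are bounds, and small grey points have both arrays at the floor. On the nm23-H2 side 9 points lie at or beyond the upper line, and on the nm23-H1 side none does.

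The interleukin-1 genes IL1A, IL1B and IL1RN also passed 2-fold with nm23-H2. IL1A, an alarmin made by keratinocytes, read 21.1 with nm23-H1, 174 with nm23-H2 and 34.1 with vector, which was 5.11-fold higher with nm23-H2 than with vector. IL1B read 96.7 with nm23-H1, 425 with nm23-H2 and 97.6 with vector, 4.35-fold higher with nm23-H2 and 1.01-fold lower with nm23-H1. For both genes the nm23-H2 array stood highest; for IL1A the nm23-H1 array was below the floor, and for IL1B it was near the vector array. The second IL1B probe set read 76.1 with nm23-H1, 251 with nm23-H2 and 58.8 with vector, a log2 difference of 2.09 between nm23-H2 and vector. The second IL1A probe set was at or below the floor on all 3 arrays, so with only probe sets specific by name the IL1A difference was 0.

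IL1RN encodes the interleukin-1 receptor antagonist, which blocks the receptor that IL1A and IL1B use. It read 61.0 with nm23-H1, 349 with nm23-H2 and 125 with vector, which was 2.80-fold higher with nm23-H2 and 2.04-fold lower with nm23-H1, both against vector. It was the one gene of the 41 past 2-fold with nm23-H1, and the transfectants lay on opposite sides of the vector array. A second probe set read 11.1, 127 and 57.3 on the nm23-H1, nm23-H2 and vector arrays, so that nm23-H1 lay at least 2.02-fold below vector. One more, which read 106 with nm23-H1, 138 with nm23-H2 and 105 with vector, differed by 0.01 and 0.39 on the log2 scale. The remaining 2 probe sets of IL1RN were at or below the floor. The difference with nm23-H1 ended under several other settings, reaching -0.41 when all probe sets were averaged and 0.01 when the nm23-H2 array was left out of the scaling and the choice of probe set. The difference with nm23-H2 also fell under 2-fold in 2 of 9 settings, at 0.605 when all probe sets were averaged and 0 with only probe sets specific by name.

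The interleukin-1 genes lie together on chromosome 2, from IL1A to IL1RN at chr2:112773925-113134014 (GRCh38.p14). Of the 7 genes there with a probe set 6 exceeded the floor on 1 array or more. IL36G, a related cytokine of epithelia, read 9.02 with nm23-H1, 74.1 with nm23-H2 and 17.7 with vector, at least 2.61-fold higher with nm23-H2. IL36RN, the antagonist of its receptor, read 6.97, 30.6 and 15.9, and IL36A 36.8, 23.3 and 22.1, on the nm23-H1, nm23-H2 and vector arrays. No match to either motif lay in the windows of IL1A, IL1B and IL1RN, which says only that these letters are absent from the 250 bases searched.

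Of the other interleukins, IL18, another cytokine of the interleukin-1 family, read 22.5 with nm23-H1, 28.4 with nm23-H2 and 49.9 with vector. It was at least 1.76-fold lower with nm23-H1, whose array was below the floor, and 1.76-fold lower with nm23-H2. IL6 read 40.2 with nm23-H1, 28.9 with nm23-H2 and 33.3 with vector. IL11 read 12.6, 39.7 and 44.2 on the nm23-H1, nm23-H2 and vector arrays. All 3 stayed under 2-fold. IL15 was above the floor with nm23-H1 only, at 34.4, and IL32 was at or below the floor on all 3 arrays.

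A group of 3 chemokines that attract neutrophils were above the floor with nm23-H2 only. CXCL1 read 17.5 with nm23-H1, 67.7 with nm23-H2 and 11.7 with vector, at least 2.39-fold higher with nm23-H2 than with vector. CXCL2 read 4.20 with nm23-H1, 85.5 with nm23-H2 and 4.10 with vector, at least 3.02-fold higher with nm23-H2. Its only probe set is of the kind that can bind related transcripts, so its share of the signal is uncertain. CXCL8, which encodes interleukin-8, read 3.79 with nm23-H1, 49.2 with nm23-H2 and 3.76 with vector, at least 1.73-fold higher with nm23-H2. A brighter CXCL8 probe set of the cross-binding kind read 18.8 with nm23-H1, 488 with nm23-H2 and 15.8 with vector, at least 17.2-fold higher with nm23-H2. In all 4 probe sets the nm23-H2 array stood alone above the floor. These differences are bounds that move with the floor. With a floor at the 70th percentile, the log2 differences shrank to 0.03 for CXCL1 and 0.37 for CXCL2, and across the settings they reached up to 2.53 and 3.38.

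The other CXC chemokine genes, CXCL3, CXCL5 and CXCL6, were at or below the floor on all 3 arrays. The 6 genes lie in 1 cluster at chr4:73740569-74099195, where 10 genes had a probe set and 4 were above the floor. The promoters are shown to compare genes that differed with genes that were at or below the floor on all 3 arrays. Consensus matches, or for CXCL8 the 9-base motif, are in capitals. CXCL8 is at chr4:73740449-73740568 (plus strand), CXCL1 at chr4:73869273-73869392 (plus strand), CXCL2 at chr4:74099196-74099315 (minus strand), CXCL3 at chr4:74038690-74038809 (minus strand), CXCL5 at chr4:73998678-73998797 (minus strand) and CXCL6 at chr4:73836558-73836677 (plus strand).
CXCL8: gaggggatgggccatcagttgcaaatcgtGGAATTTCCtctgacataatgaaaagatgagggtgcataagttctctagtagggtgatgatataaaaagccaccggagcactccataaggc
CXCL1: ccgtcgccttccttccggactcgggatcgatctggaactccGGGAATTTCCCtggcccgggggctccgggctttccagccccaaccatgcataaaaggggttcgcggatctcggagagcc
CXCL2: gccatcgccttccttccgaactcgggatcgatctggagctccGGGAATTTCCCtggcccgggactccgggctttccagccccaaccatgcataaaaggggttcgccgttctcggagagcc
CXCL3: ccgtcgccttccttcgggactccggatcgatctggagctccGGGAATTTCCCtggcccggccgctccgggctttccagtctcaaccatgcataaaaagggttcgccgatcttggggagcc
CXCL5: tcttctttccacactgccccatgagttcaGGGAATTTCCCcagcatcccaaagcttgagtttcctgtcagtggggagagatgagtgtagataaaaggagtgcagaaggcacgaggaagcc
CXCL6: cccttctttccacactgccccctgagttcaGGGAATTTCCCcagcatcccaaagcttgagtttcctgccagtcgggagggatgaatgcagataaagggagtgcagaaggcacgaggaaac
CXCL1, CXCL2, CXCL3, CXCL5 and CXCL6 each held a consensus match on both strands with GGAATTTCC inside it, at 79 to 70 bases before the start in CXCL1 and CXCL3, 78 to 69 in CXCL2, 91 to 82 in CXCL5 and 90 to 81 in CXCL6. CXCL8 held GGAATTTCC without the consensus, at 91 to 83 bases. Without gaps, 90.8% of the bases shown were the same in CXCL1 and CXCL3 and 92.4% in CXCL5 and CXCL6. Promoters with the same motif thus belonged to genes above the floor with nm23-H2 and to genes at or below the floor on all 3 arrays.

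**Figure D3:**
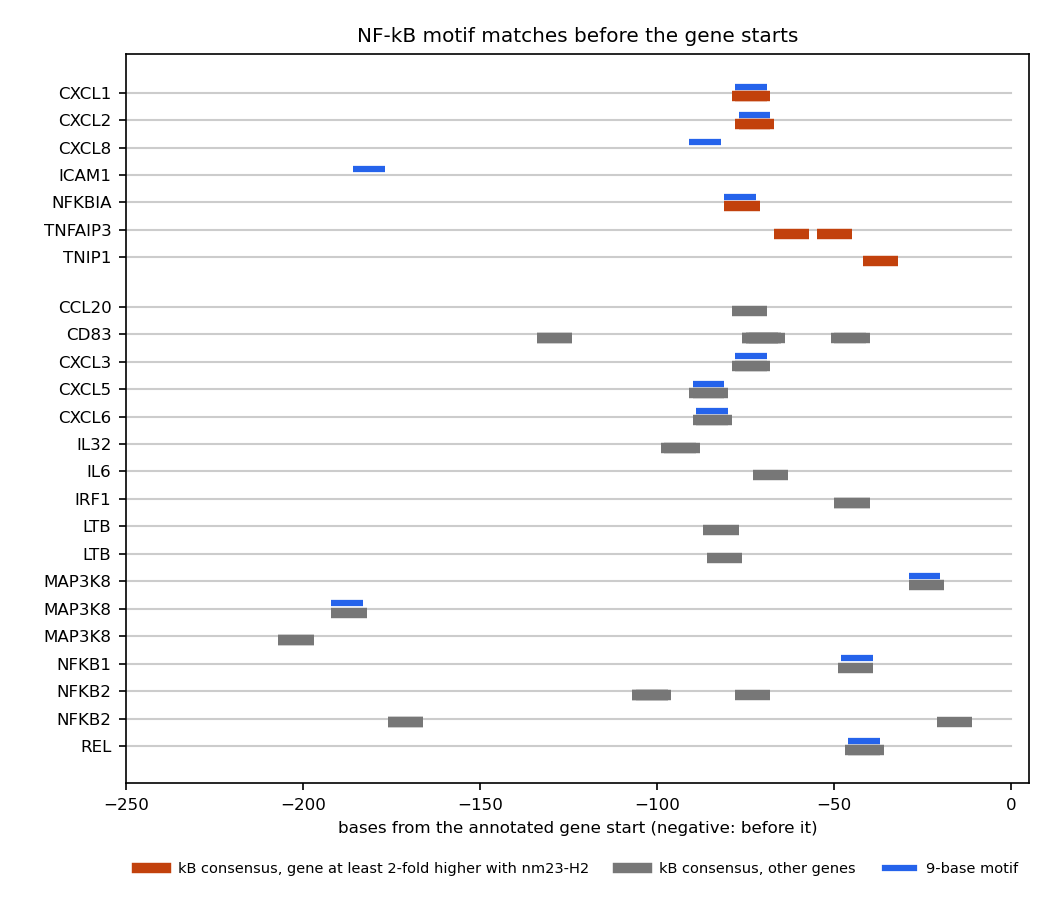
Positions of the kB consensus and of the 9-base motif in the 250 bases before each annotated start of the genes that hold a match, as bases from the start (negative values lie before it). Genes at least 2-fold higher with nm23-H2 by any probe set are at the top and other genes below; matches occur in both.

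A consensus match lay in 19 of the 36 genes of the list with a promoter in the table (52.8%), against 11.8% of all 27305 genes and 9.96% of all 35116 promoters. Many of these genes are known as NF-kB targets, so this share says nothing about the arrays. GGAATTTCC lay in 0.413% of all promoters. Either motif lay in 7 of 10 genes that were at least 2-fold higher with nm23-H2 by any probe set, in 13 of 21 that had a probe set and were not, and in 8 of 11 that were at or below the floor on all 3 arrays.

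CX3CL1, the membrane-bound chemokine fractalkine, was the one gene of the list that passed 2-fold downward with nm23-H2. It read 51.2 with nm23-H1, 19.6 with nm23-H2 and 70.5 with vector, at least 2.49-fold lower with nm23-H2 and 1.38-fold lower with nm23-H1, both against vector. With a floor at the 70th percentile, the log2 difference with nm23-H2 was -0.09. Its second probe set differed by -0.18 (log2) for both transfectants, with those arrays at the floor. CCL5 read 23.5, 21.4 and 32.5 on the nm23-H1, nm23-H2 and vector arrays, and CCL2 and CCL20 were at or below the floor on all 3. CSF1, the macrophage growth factor, read 51.2 with nm23-H1, 27.9 with nm23-H2 and 47.2 with vector, at least 1.66-fold lower with nm23-H2. CSF3, LIF, TNF and LTB were at or below the floor on all 3 arrays.

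Of the 5 other targets, TNFAIP2, a protein induced by TNF, came nearest to 2-fold. It read 256 with nm23-H1, 421 with nm23-H2 and 224 with vector, 1.88-fold higher with nm23-H2, and its second probe set differed by 0.76 (log2). IRF1, a transcription factor of the interferon response, read 198 with nm23-H1, 194 with nm23-H2 and 168 with vector. The adhesion molecule ICAM1 read 152 with nm23-H1, 169 with nm23-H2 and 133 with vector. Its 3 probe sets differed from one another: with nm23-H2 the log2 differences from vector were 0.35, 1.12 and -0.08. CD83 read 20.6, 44.8 and 28.4 on the nm23-H1, nm23-H2 and vector arrays, and PTGS2 was at or below the floor on all 3.

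Counting every probe set on its own, 14 of the 66 were at least 2-fold higher with nm23-H2 than with vector, from 11 genes, and 1 was lower, against 2.14% and 2.0% of the 19071 probe sets with 1 symbol. With nm23-H1 none was higher and 2, both of IL1RN, were lower than with vector, against 1.33% and 1.04%. The 2 genes added in the first count were CXCL8 and ICAM1.

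**Figure D4:**
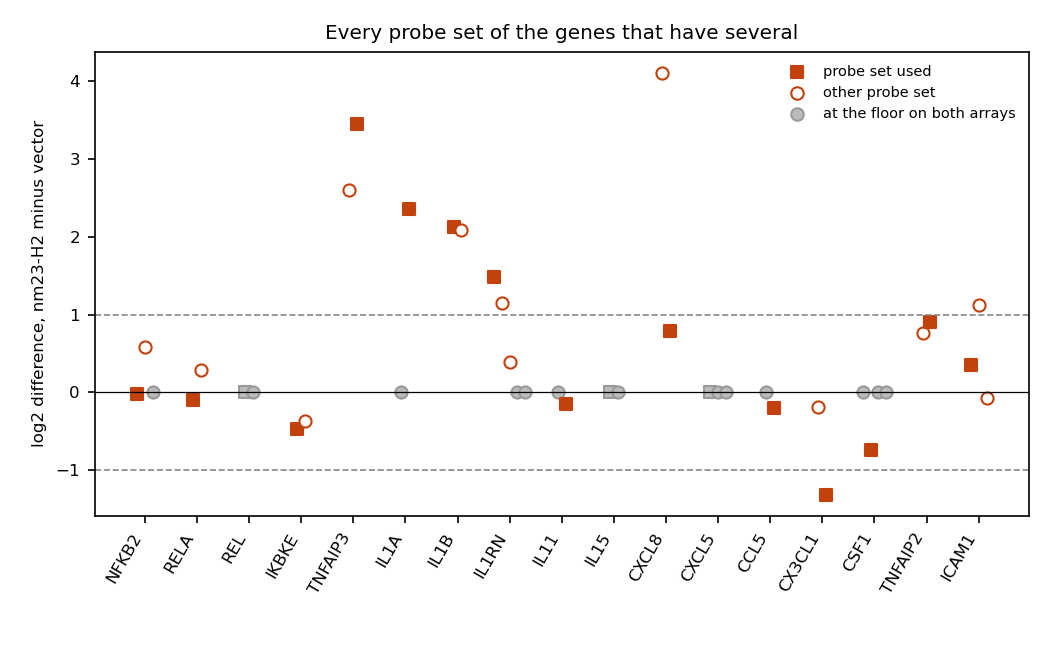
Log2 difference between nm23-H2 and vector for every probe set of the genes with more than 1 probe set, the chosen one and the others marked apart. The 2 probe sets of TNFAIP3 (3.44 and 2.60) and of IL1B (2.12 and 2.09) all lie above the 2-fold line, and those of CXCL8, ICAM1, IL1A and IL1RN spread widely, for IL1A from 0 to 2.35.

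Neighbouring genes were read as a median with the genes of the list left out, which cannot show a change confined to a few adjacent genes. A cause in the region was not tested. The median log2 difference between nm23-H2 and vector over the 50 nearest measured genes ran from -0.23 to 0 around RELB, TNFAIP3, TNIP1, NFKBIA, IL1A, IL1B, IL1RN, CXCL1, CXCL2 and CX3CL1. Around TNFAIP2 the neighbours were lower than with vector in both transfectants, by -0.42 with nm23-H1 and -0.36 with nm23-H2. For nm23-H1 against vector, the neighbour median around NFKBIA was -0.22, where NFKBIA itself differed by -0.54. Around IL1RN it was 0.10, where IL1RN itself differed by -1.03.

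Genes that act before and beside these were read from wider lists, to be set against the shares over all genes given above, 2.37% higher and 2.42% lower with nm23-H2 and 1.45% higher and 1.15% lower with nm23-H1. With counts of 1 to 3 genes, the lists other than the further targets give little to compare with these shares. All these lists, the further targets among them, were chosen with earlier results of these data known, so their counts test nothing. Of 21 receptors and ligand partners 2 were at least 2-fold higher with nm23-H2 and none with nm23-H1. TNFRSF12A, the receptor of the cytokine TWEAK, read 543 with nm23-H1, 1287 with nm23-H2 and 603 with vector, and TNFRSF21, a death receptor, read 209, 455 and 207. Of 26 adaptors and kinases 2 were higher with nm23-H2, and 2 were higher and 1 lower with nm23-H1. BCL10, an adaptor of antigen-receptor signalling, read 51.0 with nm23-H1, 164 with nm23-H2 and 71.0 with vector. MYD88, the adaptor of the interleukin-1 and Toll-like receptors, was higher with both, at 532 with nm23-H1, 558 with nm23-H2 and 279 with vector, of which only the nm23-H2 difference reached 2-fold. The 3 past 2-fold with nm23-H1 were RBCK1, MAP3K3 and CARD10. RBCK1, a subunit of the linear ubiquitin ligase, was higher with both, at 896 with nm23-H1, 618 with nm23-H2 and 337 with vector. MAP3K3 read 98.2, 57.1 and 40.7, and CARD10 138, 348 and 289, in the same order of arrays. The chromosomal neighbours of genes on these wider lists were not read.

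Of 16 other inhibitors 3 were at least 2-fold higher with nm23-H2 and none with nm23-H1. ZFP36, which promotes decay of cytokine mRNAs, read 65.7 with nm23-H1, 247 with nm23-H2 and 97.2 with vector. TNIP2 read 110 with nm23-H1, 244 with nm23-H2 and 96.2 with vector, and SOCS1, an inhibitor of cytokine receptor signalling, read 25.1, 69.4 and 17.2. The second probe set of TNIP2 differed from vector by 0.64 with nm23-H2, and that of SOCS1 went the other way, by -0.16. Of 39 further target genes 8 were past 2-fold upward and 1 downward with nm23-H2, and none upward and 3 downward with nm23-H1. LCN2, a secreted iron-binding protein of innate defence, read 120 with nm23-H1, 1960 with nm23-H2 and 235 with vector. C3 of the complement system read 3.28 with nm23-H1, 207 with nm23-H2 and 3.43 with vector, and GADD45A 31.3, 155 and 34.5. S100A9, a subunit of the inflammatory protein calprotectin, lay above vector with nm23-H2 and below it with nm23-H1, at 88.2 with nm23-H1, 1952 with nm23-H2 and 504 with vector. The median log2 difference of these 39 genes was 0.23 with nm23-H2 and 0 with nm23-H1. None of 25 receptors of the secreted products passed 2-fold in either comparison with vector, and 16 of them were at or below the floor on all 3 arrays.

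**Figure D5:**
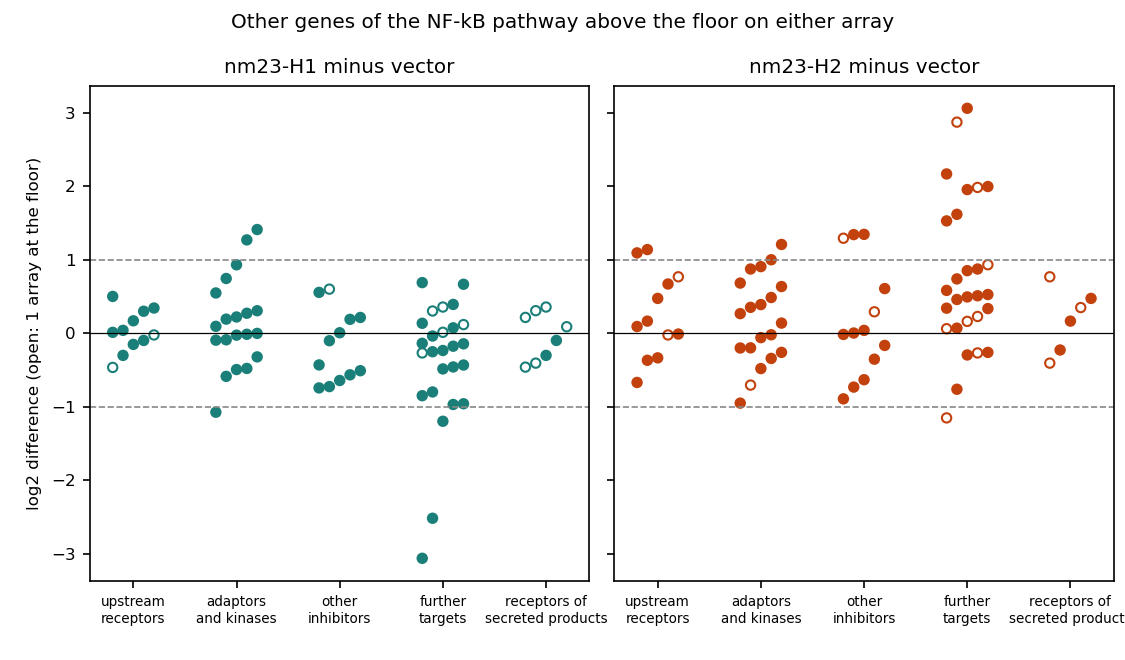
Log2 difference from vector of each gene of 5 wider lists (receptors, adaptors and kinases, other inhibitors, further targets, receptors of the secreted products) that was above the floor on either array, nm23-H1 on the left and nm23-H2 on the right, with dashed lines at 2-fold and open points for bounds. With nm23-H2, 8 further targets lie above the upper line, up to LCN2 at 3.06, and with nm23-H1 S100A8 lies lowest at -3.06.

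The other 5 genes of the list had no value. BIRC3, TRAF2 and CSF2 had no probe set named in the annotation table used and were not analysed here. SOD2 and BCL3 had only probe sets shared with another symbol, which the rule leaves out.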

How the data were processed

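The deposited values are linear intensities per probe set (22283 on each of 3 arrays), made with MAS5 per the submitters' processing notes; its version and scaling target are not given in the sources used here, and no detection calls were used. Each array was multiplied (nm23-H1 by 1.03, nm23-H2 by 0.881, vector by 1.11) to a common mean between the 2nd and 98th percentiles, values below the pooled median of 28.3 were raised to it, and log2 was taken. Probe sets with 1 symbol numbered 19071, and 1043 with several and 2169 with none were left out. Per gene, 1 probe set was used: names not ending in _x_at first (that ending marks probes that can bind related transcripts), then the highest mean. Symbols came from the platform annotation, and positions and promoters from RefSeq (GRCh38.p14). The members and lists were chosen with earlier results of these data known. Members past 2-fold in any comparison were named with their signals, those under it where the brightest array reached the 70th percentile (66.2), and others by name and range, with further members named here by their signals after these were seen. From each other list up to 6 genes were named for nm23-H2 and 3 for nm23-H1, with the same signal limit; not all are printed. The number of arrays limits the precision. Alternatives changed scaling, floor, probe set choice and threshold, and 2 were added after seeing the data. Steps were tested on simulated data. Python 3.11.15, numpy 2.4.6, pandas 2.3.3 and matplotlib 3.10.9 were used.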

Additional observations from a re-analysis of the deposited data

Results flagged for a closer look

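Probe sets shared by 2 symbols were outside the counts, and 3 of them were at least 2-fold above vector with nm23-H2, which drew attention to them as signal in data that the comparisons do not use. A probe set shared by SOD2, a mitochondrial superoxide dismutase, and SOD2-OT1 read 102 with nm23-H1, 457 with nm23-H2 and 97.2 with vector, a log2 difference of 2.23 between nm23-H2 and vector. Another read 77.9 with nm23-H2 and lay below the floor with nm23-H1 and vector, a difference of at least 1.46, one more differed by 0.51, and the remaining one was at or below the floor on all 3 arrays. A probe set shared by BCL3, a nuclear relative of the IkB proteins, and MIR8085 read 49.6 with nm23-H1, 173 with nm23-H2 and 70.3 with vector, a difference of 1.30, and its other probe set differed by 0.25. Which of the 2 symbols gave the signal was not tested.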

How the results depend on the processing

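No paired analysis was possible because each group was 1 array. With nm23-H2 against vector, RELB, TNFAIP3, TNIP1, NFKBIA and IL1B stayed at least 2-fold higher under each alternative that gave a value (for TNFAIP3 from 2.84 to 3.77 and for RELB from 1.13 to 2.25 on the log2 scale), and the count of genes higher lay between 7 and 13, except that it was 3 with only probe sets specific by name, where 27 of the genes have a value. The share of all genes higher was then 1.95%. Over the other settings that share ran from 1.60% with the floor at the 70th percentile to 7.04% at 1.5-fold. The count lower with nm23-H2 was 3 with a floor at the 25th percentile (8.18% of all genes) or at 1.5-fold (9.55%), and 0 with the floor at the 70th percentile or the mean of all probe sets. With nm23-H1 against vector, 2 genes were higher at 1.5-fold (5.73% of all genes); the count lower was 3 with a 25th-percentile floor (4.61%) or at 1.5-fold (5.03%), and 0 with the values as deposited, the floor at the 70th percentile, the mean of all probe sets, probe sets specific by name, or the nm23-H2 array left out. Between the transfectants, the 25th-percentile floor left 6 genes higher and 14 lower with nm23-H1 (9.09% and 5.30% of all genes), adding 16 left 2 higher (2.89%), as did 1.5-fold (10.8%), and 3 were lower by probe sets specific by name (2.02%). The median of the feedback inhibitors, nm23-H1 minus nm23-H2, turned to 0.12 with probe sets specific by name, where NFKBIE alone has one. IL1RN, nm23-H1 minus vector, turned to 0.0119 with the nm23-H2 array left out, which selects another probe set. With the floor at the 70th percentile CXCL1 had 0.03, CXCL2 0.37 and CX3CL1 -0.09 for nm23-H2 minus vector. At the main floor these differences are bounds, and at the other end of the settings they were 2.53, 3.38 and -1.84. Of the single-gene values 16 dropped under 2-fold and 156 did not change side. With the values as deposited, 630 of all genes were higher and 108 lower with nm23-H2 than with vector (283 and 290 after scaling), and the median of all genes moved to 0.17. The counts for nm23-H1 against vector were then 212 and 92 (173 and 137 after scaling), and between the transfectants 172 and 494 (299 and 299). Values below the floor have no order. With nm23-H2 against vector both arrays were at the floor for 5 of 10 chemokines and 4 of 5 growth factors and TNF family cytokines.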
